A study of Mus musculus with 8 samples.

Results

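The protein kinase C isoform genes described here are Prkca, Prkcb, Prkce, Prkch, Prkci, Prkcq and Prkcz, taken as the 7 entries of the deposited count table that carry these symbols, of 46078 gene entries in all. All 7 had enough counts to be tested among 15859 genes. The libraries are from hippocampus of C57BL/6J mice aged 9 weeks. The titles of all 8 carry the line name CamiCre, and 4 libraries are labelled wild type (WT). The other 4 have the genotype Cre+/- (Cre) for the transgene of that line, Tg(Camk2a-cre)2Gsc, in which the Camk2a promoter puts Cre recombinase mainly into excitatory neurons of the forebrain. No floxed allele and no drug is named in the labels for either group, so the groups differ by the transgene alone as far as they are labelled. The labels do not say whether each library is a separate animal or a pool, so p-values measure the spread between these libraries. In bulk tissue, fewer cells of a type and less RNA per cell cannot be told apart.

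Protein kinase C is a family of serine and threonine kinases held inactive by a pseudosubstrate stretch that fills their own active site. Conventional isoforms (Prkca and Prkcb) are released by calcium together with diacylglycerol. A second class (Prkce, Prkch and Prkcq), called the calcium-independent isoforms here, is released by diacylglycerol alone. Atypical isoforms (Prkci and Prkcz) are released by protein partners in place of either lipid or calcium. They need no calcium either but are kept here as a class of their own. In hippocampal neurons the family acts downstream of receptors coupled to Gq and phospholipase C, and it is known for work on synaptic plasticity, on transmitter release and on the phosphorylation of membrane-bound substrates such as MARCKS. The sum of the family's messenger RNA in a tissue does not measure its kinase activity.

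The Prkcz count adds the transcripts of 2 products. The full-length atypical kinase starts at the first promoter, whereas protein kinase M zeta, the brain form that lacks the regulatory region of the protein, comes from a promoter inside the gene. The deposited counts are per gene and do not separate them. RefSeq (GRCm38.p6) gives start windows for 5 of the 7 isoform genes. Prkcz has 3 of them, and those at the outer start and at the first inner start are shown to set an outer and an inner start side by side, and those of Prkca and Prkcq because these genes lie far apart in level. Each runs 5′ to 3′ on the minus strand for Prkca and Prkcz and on the plus strand for Prkcq, from 250 bases before the start site, and 260 bases are printed. Capitals mark matches on either strand to the GC box GGGCGG, the CCAAT box, the cAMP response element TGACGTCA and the TATA box TATAAA.
Prkcz outer start, chr4:155361419-155361678: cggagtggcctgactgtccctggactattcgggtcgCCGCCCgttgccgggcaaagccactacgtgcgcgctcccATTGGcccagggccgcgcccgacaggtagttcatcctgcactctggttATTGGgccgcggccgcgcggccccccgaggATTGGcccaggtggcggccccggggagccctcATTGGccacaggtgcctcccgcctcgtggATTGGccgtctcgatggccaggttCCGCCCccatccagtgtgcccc
Prkcz inner start, chr4:155345780-155346039: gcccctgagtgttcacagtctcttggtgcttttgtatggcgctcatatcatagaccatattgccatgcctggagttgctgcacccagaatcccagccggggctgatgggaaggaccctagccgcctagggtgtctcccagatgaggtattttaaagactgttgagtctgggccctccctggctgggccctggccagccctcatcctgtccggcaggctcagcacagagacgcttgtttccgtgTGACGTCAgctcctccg
Prkca, chr11:108343879-108344138: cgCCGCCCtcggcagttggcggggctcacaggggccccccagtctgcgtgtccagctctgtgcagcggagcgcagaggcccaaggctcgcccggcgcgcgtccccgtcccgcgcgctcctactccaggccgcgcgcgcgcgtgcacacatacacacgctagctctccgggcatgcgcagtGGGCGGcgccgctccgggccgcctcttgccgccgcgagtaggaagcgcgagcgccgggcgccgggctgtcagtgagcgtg
Prkcq, chr2:11172132-11172391: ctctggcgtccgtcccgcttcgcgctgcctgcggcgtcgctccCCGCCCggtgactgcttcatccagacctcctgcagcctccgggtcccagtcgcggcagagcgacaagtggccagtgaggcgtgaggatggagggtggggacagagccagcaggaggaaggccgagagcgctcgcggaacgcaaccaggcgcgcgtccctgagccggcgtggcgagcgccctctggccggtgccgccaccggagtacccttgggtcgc

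In the whole windows of 300 bases, the outer Prkcz start held 5 CCAAT boxes, 3 GC boxes and 31 CpG dinucleotides. The first inner start held 1 cAMP response element, 0 CCAAT boxes, 0 GC boxes and 13 CpG dinucleotides. The other inner window, not printed, held 0 cAMP response elements, 0 CCAAT boxes, 2 GC boxes and 14 CpG dinucleotides, so the element was in 1 of the 2 inner windows. The counts do not tell which start was used. Of 32851 RefSeq windows of this length, 1.79% held the cAMP response element, 37.4% a CCAAT box, 35.7% a GC box and 13.6% a TATA box. The Prkca window, with 42 CpG dinucleotides, and the Prkcq window, with 37, each had 0 cAMP response elements, 0 CCAAT boxes and 0 TATA boxes. The Prkca window held 2 GC boxes and the Prkcq window 1. Of all windows, 96.97% had fewer CpG dinucleotides than that of Prkca and 94.42% fewer than that of Prkcq, and the levels of these genes differ widely, as the next values show. These are letter matches in short windows, not measured binding sites.

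The genes lie on 7 different chromosomes. In GENCODE M21 (GRCm38), Prkca spans 107933387 to 108343928 on chromosome 11 (minus strand) and Prkcb 122288751 to 122634402 on chromosome 7 (plus strand). Prkce spans 86167785 to 86657919 on chromosome 17, Prkch 73584796 to 73778185 on chromosome 12 and Prkcq 11172108 to 11301222 on chromosome 2, all on the plus strand. Prkci spans 30995747 to 31052959 on chromosome 3 (plus strand) and Prkcz 155260129 to 155361361 on chromosome 4 (minus strand). The one measured gene with exon bases on the opposite strand of a member is Apoh, which shares 30 exon bases with Prkca and had 4 to 15 counts per library against 7288 to 9923 for Prkca. On the same strand, AC154542.1 shares 472 exon bases with Prkce, and no counts were obtained for it.

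Levels were compared between isoforms per length, as CPM (counts scaled to a common normalised library size) divided by the kilobases of all annotated exons of the gene. Prkce, a calcium-independent isoform, was the most abundant at 135 ± 2.30 CPM per kb in WT and 134 ± 8.02 in Cre (SD, n = 4 each). The conventional isoform Prkcb followed at 65.5 ± 1.09 and 62.6 ± 1.96 CPM per kb, then the conventional Prkca at 41.4 ± 2.66 and 38.5 ± 5.82. The atypical isoforms stood at 33.7 ± 1.07 and 34.0 ± 0.89 CPM per kb for Prkcz and at 10.8 ± 0.41 and 10.6 ± 0.30 for Prkci. The other calcium-independent isoforms of the set were far lower, at 1.29 ± 0.16 and 1.33 ± 0.17 CPM per kb for Prkcq and 0.43 ± 0.06 and 0.40 ± 0.03 for Prkch. On this scale calcium-independent isoforms held both the highest and the lowest places of the set.

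**Figure D1:**
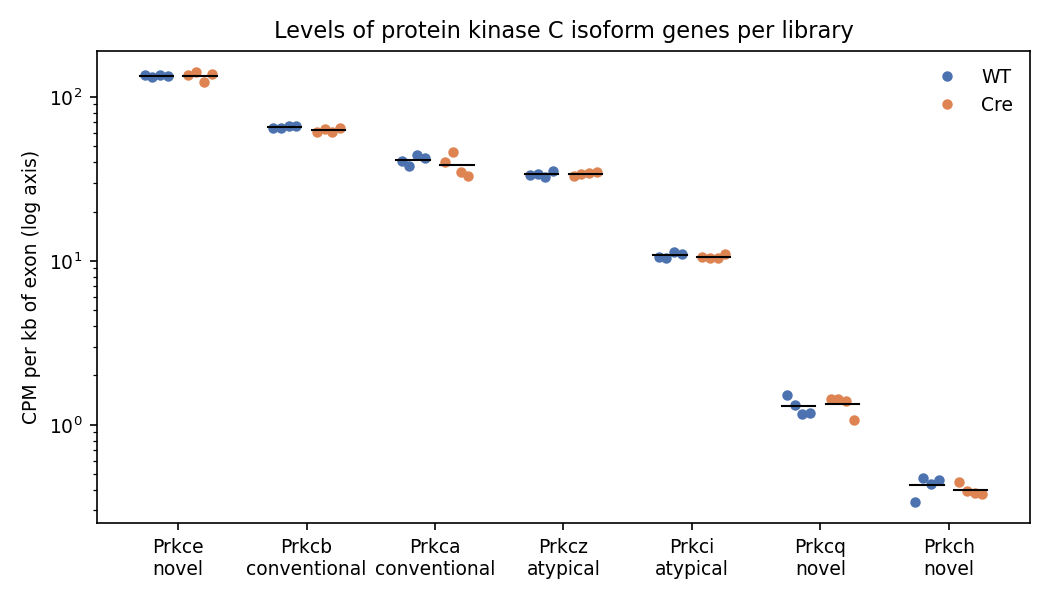
Level of each isoform gene in CPM per kb of exon (log axis), with 1 point per library (4 WT, 4 Cre) and a black line at each group's mean. Prkce lies highest and Prkch lowest, the WT and Cre points lie close together within each gene, and Prkca has the widest scatter of the 4 abundant genes.

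Of the 6 pairs of neighbours in this order, 5 did not overlap over the 8 libraries. The exception was Prkca over Prkcz, where Prkca was higher in 7 of 8 libraries and the ratio ran from 0.95 to 1.36. Prkce was 2.02 to 2.23 times Prkcb, and Prkci was 6.96 to 10.2 times Prkcq. The order depends on the length used. With the longest protein-coding transcript in place of all exons, a choice added after seeing the data, Prkcb (168 CPM per kb over the 8 libraries) stood above Prkce (156) and Prkcz (52.4) above Prkca (42.7), while Prkci, Prkcq and Prkch kept places 5 to 7.

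Levels were then summed by class on the same scale, with the atypical isoforms kept apart from the calcium-independent class (Prkce, Prkch and Prkcq). That class made up 47.4% ± 0.61 of the set in WT and 48.3% ± 0.97 in Cre. Conventional isoforms made up 37.1% ± 0.59 and 35.9% ± 1.01, and atypical isoforms 15.5% ± 0.43 and 15.8% ± 0.93 (SD, n = 4 each). The ranges of the groups overlapped in each class, and no test was made on these sums. The ranking of the classes turns with the length. With the longest protein-coding transcript, also added after seeing the data, conventional isoforms led at 49.0% ± 0.48 in WT and 47.8% ± 0.59 in Cre, calcium-independent isoforms made up 36.2% ± 0.52 and 37.1% ± 0.91, and atypical isoforms 14.7% ± 0.40 and 15.1% ± 0.75. In CPM without length correction, the 7 genes together had 2080 to 2183 in WT and 1961 to 2217 in Cre.

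None of the 7 isoform genes passed the comparison of Cre with WT (edgeR quasi-likelihood test, Benjamini-Hochberg adjustment over all 15859 genes, threshold 0.05; adjusted p = 0.999 for each). Over all genes 0.0315% passed (0.0252% higher in Cre and 0.00631% lower), 5 genes that include Syt2 and Slc6a7. At an unadjusted p under 0.05 there were 0 of 7 isoform genes by edgeR, by DESeq2 and by limma voom, against 3.5% of all tested genes (2.05% higher, 1.45% lower). Of the 7 log2 fold changes 5 were below 0 and their median was -0.03. Of all genes 49.8% lay below 0, and the median was 0.0004. The groups did not overlap in 1 of the 7, Prkcb, against 2.31% of all genes (1.29% higher, 1.03% lower).

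**Figure D2:**
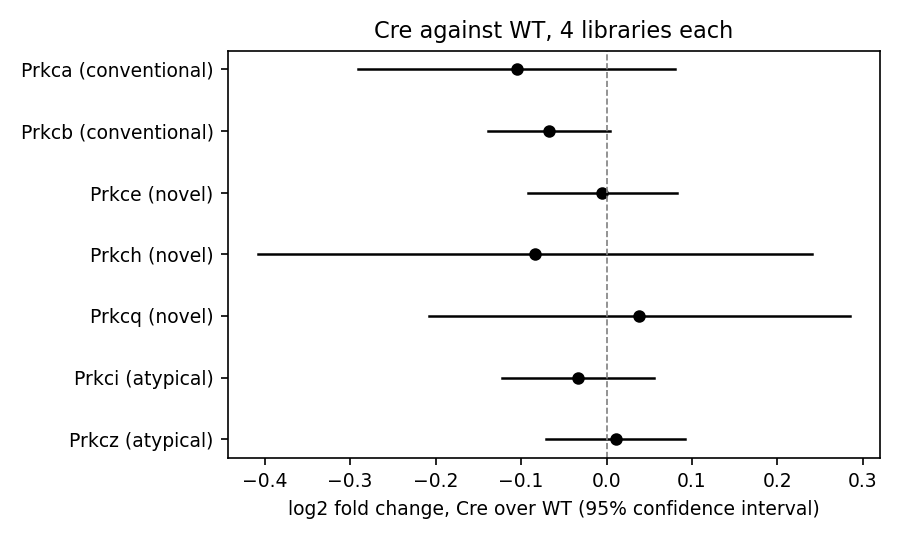
log2 fold change of Cre over WT for each isoform gene (points) with its 95% confidence interval from edgeR (lines), 4 libraries per group. All 7 intervals include 0, and they are widest for the low genes Prkch and Prkcq.

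Prkca encodes protein kinase C alpha, a conventional isoform that moves to the membrane when calcium rises. Its levels were 367, 341, 397 and 384 CPM in WT replicates 1 to 4 and 360, 414, 314 and 297 CPM in Cre replicates 1 to 4. Cre replicate 2 was the highest of all 8 libraries, Cre replicates 3 and 4 were the lowest, and the groups overlapped. Cre against WT gave a log2 fold change of -0.11 (SE 0.09, 95% interval -0.29 to 0.08; exact permutation p = 0.343, 2-sided, n = 4 each). Without Cre replicate 2 it was -0.20 (unadjusted p = 0.0116, adjusted p = 0.996 by edgeR), and without Cre replicate 4 it was -0.04. As a percent change the interval of all 8 libraries runs from -18.3% to 5.74%.

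Prkca varied more between libraries than most genes of its abundance. Its coefficient of variation was 6.42% in WT and 15.1% in Cre, where counting error alone would give 1.06%. Its fitted biological coefficient of variation was 0.09 against a trend of 0.06 at this level, and 1.07% of tested genes within 0.5 log2 CPM of its level had a larger one. The 2 genes of at least 3 log2 CPM whose pattern over the 8 libraries was most like it were Snap91, a clathrin adaptor gene of presynaptic terminals (r = 0.988), and Lsm11, a gene of histone messenger RNA processing (r = 0.987). Both were picked as the highest of 10529 correlations.

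The spread of Prkca ran beside that of markers of CA2 and CA3 pyramidal neurons. The mean level of these 7 markers (Amigo2, Rgs14, Pcp4, Bok, Cpne4, Grik4 and Pvrl3, the older symbol of Nectin3) was 5.72, 5.53, 5.70 and 5.72 log2 CPM in WT replicates 1 to 4. It was 5.69, 5.81, 5.53 and 5.45 log2 CPM in Cre replicates 1 to 4, so Cre replicate 2 was again the highest and Cre replicate 4 the lowest. Over the 8 libraries Pearson's r with Prkca was 0.94 (exact permutation p = 4.71e-04, adjusted p = 0.0528 over 112 relations of 7 genes and 16 marker lists) and Spearman's rho was 0.90 (exact permutation p = 0.00456, adjusted p = 0.162). Without the 2 libraries farthest from the median of the markers, WT replicate 2 and Cre replicate 4, r was 0.94. Centred within each group, r was 0.96. None of the 112 relations passed 0.05 after adjustment. Markers of thalamus and habenula had r = -0.89 with Prkca (exact permutation p = 0.00526, adjusted p = 0.165) and rho = -0.88 (exact permutation p = 0.00724, adjusted p = 0.162), and r was -0.80 without Cre replicates 2 and 3. Striatum markers also had rho = -0.88, with r = -0.76 (exact permutation p = 0.0297, adjusted p = 0.351). For neocortex markers r was -0.76 (exact permutation p = 0.0279, adjusted p = 0.351), and -0.35 without Cre replicates 2 and 4. For CA1 markers r was -0.69 (exact permutation p = 0.0617, adjusted p = 0.479), and -0.85 centred within each group. The part of regional make-up in the level of Prkca was not tested.

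**Figure D3:**
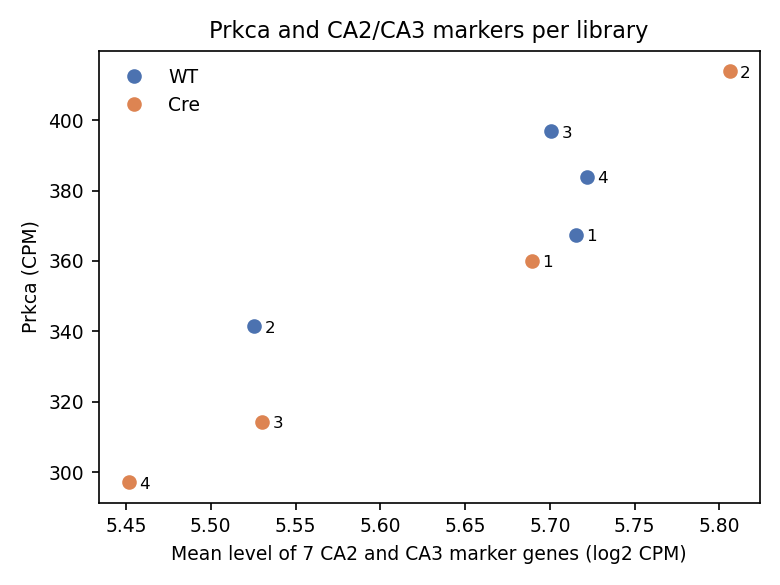
Prkca in CPM against the mean log2 CPM of 7 CA2 and CA3 marker genes, with 1 point per library coloured by group and numbered by replicate. Cre replicate 2 lies at the upper right and Cre replicate 4 at the lower left, with the WT libraries between them.

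Prkcb encodes protein kinase C beta, the conventional isoform with alternative C-terminal ends. It stood at 493, 496, 511 and 505 CPM in WT replicates 1 to 4 and at 465, 491, 466 and 493 CPM in Cre replicates 1 to 4. Every Cre library lay below every WT library, but the gap between WT replicate 1 (492.98 CPM) and Cre replicate 4 (492.55 CPM) was small. With DESeq2 size factors these libraries changed places (492.5 and 493.5 CPM), and the groups then overlapped. The log2 fold change was -0.07 (SE 0.03, interval -0.14 to 0.004), with an unadjusted p of 0.0636 and an adjusted p of 0.999 by edgeR. The exact permutation p was 0.0286, the smallest that 4 libraries against 4 can give. As a percent change the interval runs from -9.14% to 0.305%. Without Cre replicate 2 the unadjusted p was 0.0431 and without Cre replicate 4 it was 0.0415 (adjusted p = 0.996 and 0.998 by edgeR).

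Astrocyte and microglia markers had fold changes above 0 beside Prkcb, and none of them passed the threshold over all genes by edgeR. At an unadjusted p under 0.05 by edgeR there were 4 of 9 astrocyte and 5 of 9 microglia markers. All of these were higher in Cre, as were 2.05% of all genes at that p. In each list 2 of 9 markers did not overlap between the groups, all higher, against 1.29% of all genes. All 9 astrocyte markers lay above 0, and their summed level was 5019 to 5413 CPM in WT and 5426 to 6051 CPM in Cre. Much of that sum is Slc1a2, a glutamate transporter gene, at 2974 ± 108 and 3210 ± 104 CPM. The mean log2 CPM of the 9, the measure correlated with Prkcb, overlapped between the groups at 7.81 to 7.97 in WT and 7.94 to 8.09 in Cre. All 9 microglia markers lay above 0 too, with sums of 298 to 329 and 331 to 444 CPM. The 9 oligodendrocyte markers also lay above 0, but their sums overlapped (4039 to 4486 and 4054 to 5208 CPM), and of 6 precursor markers 4 lay above 0 and 2 below. Over the 8 libraries Prkcb had r = -0.81 with the mean of the microglia markers (exact permutation p = 0.00117, adjusted p = 0.0653) and rho = -0.95 (exact permutation p = 0.00114, adjusted p = 0.128). Without Cre replicate 1 and WT replicate 3 it was -0.66, and centred within each group -0.66. With the astrocyte markers r was -0.83 (exact permutation p = 0.0129, adjusted p = 0.290) and rho was -0.69 (exact permutation p = 0.0694, adjusted p = 0.539). Without Cre replicate 1 and WT replicate 3 that r was -0.63, and centred within each group -0.68. With the markers of hippocampal excitatory neurons r was 0.71 (exact permutation p = 0.0508, adjusted p = 0.460) and rho was 0.48 (exact permutation p = 0.243, adjusted p = 0.713). Without Cre replicate 3 and WT replicate 3 that r was 0.35, and centred within each group 0.89. The parts of glial and of neuronal content in the level of Prkcb were not tested. The genes most like Prkcb in pattern were Tbc1d22b (r = 0.993) and Pacsin1, a neuronal endocytosis gene (r = 0.967).

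Prkce encodes protein kinase C epsilon, a calcium-independent isoform found in axons and presynaptic terminals. It stood at 990, 958, 994 and 973 CPM in WT replicates 1 to 4 and at 986, 1028, 893 and 996 CPM in Cre replicates 1 to 4. Cre replicate 3 was the lowest and Cre replicate 2 the highest, with all WT libraries between them. The log2 fold change was -0.005 (SE 0.04), and its interval runs from -6.19% to 5.86% as a percent change. Gria1, an AMPA receptor subunit gene, had the pattern most like it (r = 0.994), followed by Mical2, an actin oxidase gene (r = 0.980). With the markers of hippocampal excitatory neurons Prkce had r = 0.84 (exact permutation p = 0.00588, adjusted p = 0.165). That r was 0.70 without Cre replicate 3 and WT replicate 3, and 0.85 centred within each group.

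Prkch and Prkcq, the genes of protein kinase C eta and theta, are calcium-independent isoforms better known from epithelia and from T cells. Prkch had 2.56, 3.56, 3.28 and 3.46 CPM in WT replicates 1 to 4 and 3.39, 2.98, 2.90 and 2.85 CPM in Cre replicates 1 to 4, from only 63 to 96 counts per library. WT replicate 1 was the lowest of all 8. Its log2 fold change was -0.08 (SE 0.15), and -0.18 without WT replicate 1. Its interval runs from -24.6% to 18.1% as a percent change.

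Prkcq had 10.7, 9.30, 8.26 and 8.35 CPM in WT replicates 1 to 4 and 10.1, 10.1, 9.83 and 7.62 CPM in Cre replicates 1 to 4, from 187 to 289 counts. Cre replicate 4 was the lowest of the 8 libraries and WT replicate 1 the highest. Its log2 fold change was 0.04 (SE 0.11), 0.13 without Cre replicate 4 and -0.01 without WT replicate 3. Of the T cell and blood markers, 4 were too low to test, with 3 counts of Cd3e, 4 of Cd3g, 28 of Cd4 and 1 of Cd8a over all 8 libraries, against 1860 counts of Prkcq. The T cell kinase gene Lck had 1.34 ± 0.22 CPM in WT and 1.45 ± 0.12 in Cre, and Ptprc, a gene of all white blood cells and of microglia, 3.09 ± 0.22 and 3.59 ± 1.001 CPM. With the mean of the tested T cell and blood markers Prkcq had r = 0.46 (exact permutation p = 0.254, adjusted p = 0.711). That rho was 0.67 (exact permutation p = 0.0831, adjusted p = 0.539). With the choroid plexus markers r was 0.65 (exact permutation p = 0.0509, adjusted p = 0.460), and 0.57 without Cre replicate 1 and WT replicate 1. Their rho was 0.88 (exact permutation p = 0.00724, adjusted p = 0.162). The parts of blood cells and of choroid plexus in the level of Prkcq were not tested. The coefficient of variation was 12.4% in WT and 12.8% in Cre for Prkcq, against 6.56% from counting, and 14.1% and 8.10% for Prkch, against 11.3%. The patterns most like Prkcq were those of Plekho2 (r = 0.959) and Zfp386 (r = 0.952), and most like Prkch those of Synm (r = 0.967) and Rsph3a (r = 0.960).

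Both atypical isoforms varied little, as did the conventional Prkcb, whose coefficient of variation was 1.66% in WT and 3.14% in Cre. Prkci, the gene of protein kinase C iota (also called lambda in mouse), which acts with the Par polarity proteins, had 58.4, 58.0, 62.6 and 61.3 CPM in WT replicates 1 to 4 and 58.3, 57.6, 57.7 and 61.1 CPM in Cre replicates 1 to 4. Its log2 fold change was -0.03 (SE 0.04), with an interval of -8.12% to 3.96% as a percent change. Prkcz, with both its products counted together, had 210, 213, 206 and 222 CPM in WT replicates 1 to 4 and 207, 213, 218 and 220 CPM in Cre replicates 1 to 4. Its log2 fold change was 0.01 (SE 0.04), with an interval of -4.76% to 6.56%. The libraries of both groups were mixed in order for either atypical gene, and their coefficients of variation lay between 2.62% and 3.77%. Nacc1 (r = 0.933) and Ppp2r5d (r = 0.927) were most like Prkci in pattern, and Tex261 (r = 0.973) and Rpl30 (r = 0.955) most like Prkcz.

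**Figure D4:**
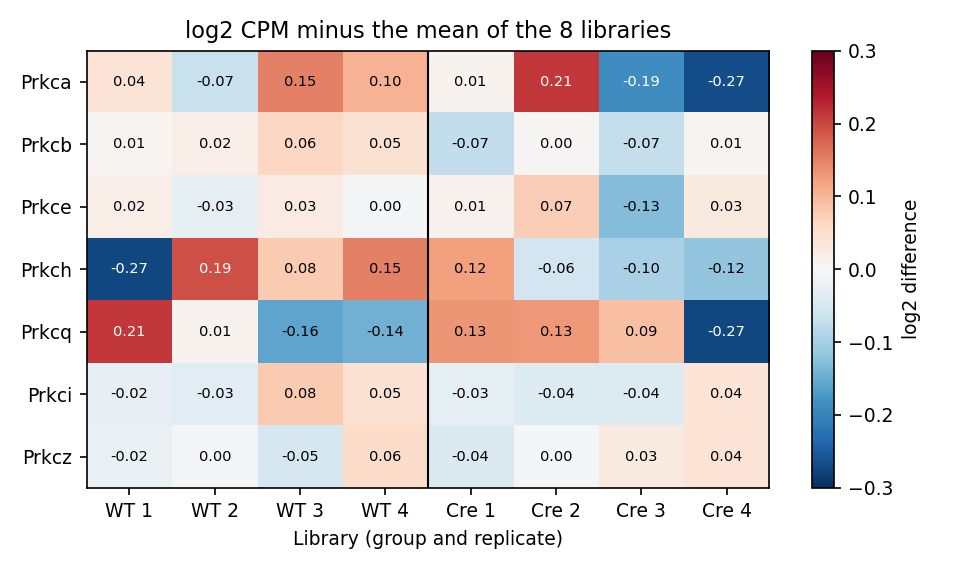
Each isoform gene's log2 CPM in each library minus its mean over the 8 libraries (red above, blue below), with the WT libraries left of the line. Prkca, Prkch and Prkcq reach beyond 0.2 from their mean in single libraries, while Prkcb, Prkci and Prkcz stay within 0.1.

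The authors' deposited table gave the same signs for all 7, from -0.10 for Prkca to 0.04 for Prkcq on the log2 scale, with p-values from 0.175 (Prkcb) to 0.936 (Prkce). It was made from the same libraries. Outside the set, Prkcd, a calcium-independent isoform, had 22.3 ± 3.70 and 22.6 ± 1.71 CPM, a log2 fold change of 0.02 (SE 0.11). In CPM without length correction Prkcd lay above Prkcq and Prkch, and it is not part of the order of levels or of the class sums. It was added after the values were seen.

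The wider pathway was read from 8 lists of 85 genes, all of them tested. In these lists 0 genes passed by edgeR's quasi-likelihood test. At an unadjusted p under 0.05 there were 2, both higher (of all genes 3.5% reached that p, and 2.05% did so with a higher level), and the groups did not overlap in 1 of the 85, against 2.31% of all genes. Of the 85, 37 fold changes were above 0 and 48 below, with a median of -0.01.

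Upstream, among 17 genes of Gq subunits and phospholipase C, 7 lay above 0 and 10 below (median -0.03). The gene with groups that did not overlap was Gna14, a Gq family subunit gene of low level with 14 to 32 counts per library, at 1.03 ± 0.12 CPM in WT and 0.79 ± 0.15 in Cre, with a log2 fold change of -0.39 (SE 0.23). Plch1, a phospholipase C eta gene, had 8.18 ± 1.18 and 7.23 ± 0.53 CPM (-0.18, SE 0.11). Diacylglycerol kinases remove the lipid that activates the conventional and the calcium-independent class but not the atypical isoforms. Of these 10 kinase genes, 8 lay below 0 (median -0.06). Dgka ran against them at 11.5 ± 0.78 CPM in WT and 13.2 ± 1.12 in Cre, with a log2 fold change of 0.19 (SE 0.08, unadjusted p = 0.0338 by edgeR), and Dgkd had 139 ± 4.59 and 132 ± 4.99 CPM (-0.07, SE 0.04).

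Genes of maturation and turnover, such as the activating kinase gene Pdpk1 (168 ± 4.83 and 162 ± 6.81 CPM) and the chaperone partner Cdc37 (133 ± 1.98 and 137 ± 4.18 CPM), had a median of -0.02 over 11 genes. Anchors and scaffolds had a median of -0.02 over 9 genes, led by Prkcdbp, the older symbol of the caveolar gene Cavin3 (11.9 ± 1.37 and 13.6 ± 1.44 CPM), and by the anchoring protein gene Akap13 (92.1 ± 3.92 and 84.8 ± 20.3 CPM). Partners of the atypical isoforms had a median of 0.003 over 13 genes. Among them were the kinase gene Map2k5 (30.1 ± 1.62 and 28.7 ± 1.07 CPM) and the polarity gene Pard3 (22.6 ± 0.98 and 23.3 ± 1.17 CPM).

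Among 13 substrates, 9 lay above 0 and 4 below (median 0.05). Ppp1r14a, a phosphatase inhibitor gene, averaged 8.38 ± 0.82 CPM in WT and 10.99 ± 2.87 in Cre, with a log2 fold change of 0.38 (SE 0.16, unadjusted p = 0.0300 by edgeR), with overlapping groups. Marcks, the abundant membrane substrate, had 160 ± 11.5 and 173 ± 8.31 CPM (0.11, SE 0.05). Other proteins that bind diacylglycerol had a median of -0.03 over 9 genes, with the Rac regulators Chn2 (18.8 ± 1.73 and 20.3 ± 1.42 CPM) and Chn1 (1083 ± 39.6 and 1043 ± 71.4 CPM) having the smallest p. The 3 related kinases included Pkn3 at 0.73 ± 0.17 and 1.07 ± 0.33 CPM, a log2 fold change of 0.54 (SE 0.28), and Pkn2 at 30.0 ± 1.91 and 31.6 ± 1.67 CPM. None of these genes passed over all genes.

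**Figure D5:**
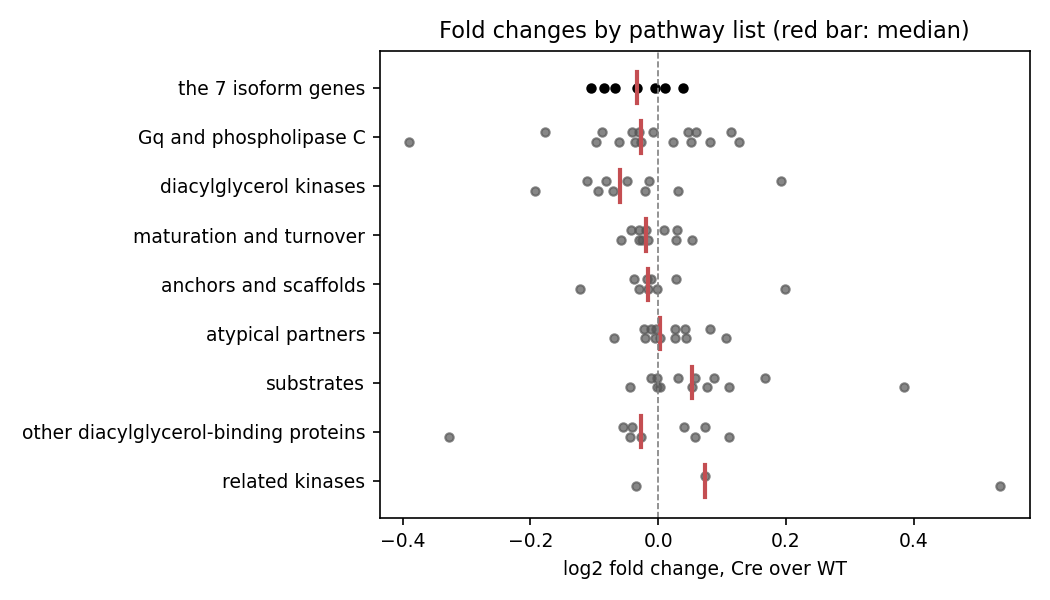
log2 fold changes of Cre over WT for the 7 isoform genes (black) and for 85 other pathway genes in 8 lists (grey), with each list's median as a red bar. The list medians lie between -0.06 and 0.07, and the 7 isoform genes lie between -0.11 and 0.04.

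Library totals were 24289522 to 26950207 counts in WT and 21339996 to 27826871 in Cre. Excitatory neuron markers were present as the tissue label says, with Slc17a7 at 1688 ± 90.2 CPM in WT and 1631 ± 102 in Cre. Choroid plexus markers were high in WT replicate 1 (mean 5.94 log2 CPM, highest of the 8 libraries), and leaving that library out did not bring any of the 7 isoform genes past the threshold.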

How the data were processed

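Poly(A) RNA of 8 hippocampal libraries was sequenced as paired reads of 150 bases, per the labels' protocols. The kit keeps strand. The authors deposited raw counts, whole numbers for each gene symbol. STAR 2.6.1d, featureCounts, edgeR 3.11 and GRCm38 are named in the submitters' processing notes. Annotation release and counting strand, not given in the sources used here, can shift reads between overlapping genes. The authors' deposited comparison gives a log2 fold change and average log2 CPM, a signed fold and linear CPM (treated here as a score and not used), and a p-value per gene whose adjustment is not stated.

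The filter on low counts was filterByExpr with a minimum count of 10 and a minimum total of 15. Normalization was TMM, with factors from 0.988 to 1.01. Cre and WT were compared by edgeR's quasi-likelihood test (edgeR 4.0.16, R 4.3.3, all 8 libraries, no covariate), with Benjamini-Hochberg adjustment over all tested genes. The step was also run on simulated counts, with changes larger than those measured for the isoform genes. That simulation does not tell whether changes as small as theirs would be found. Exact permutation tests used log2 CPM (prior count 2), 2-sided. Lengths came from GENCODE M21. At these depths 3 counts correspond to 0.107 to 0.142 CPM, and counting intervals cover counting error only. Alternatives were DESeq2 1.42.0, limma 3.58.1 (voom), edgeR's exact test, DESeq2 size factors, no filter, a replicate block and leaving out each library. The 272 repeated symbols were kept as separate entries.

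The members and lists were chosen with earlier results of these data known. Named genes are the 7 members, the 2 genes of smallest p per pathway list, the 2 genes (mean of at least 3 log2 CPM) most correlated with each member, Syt2 and Slc6a7. Marker genes, Prkcd, T cell markers and Slc17a7 are named beyond that rule.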

Additional observations from a re-analysis of the deposited data

Results flagged for a closer look

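Cre replicate 4 stood apart from the other Cre libraries in Prkcq, with 7.62 CPM against 9.83 to 10.1 CPM. Its gap to the nearest library was 0.883 of the group's range, above the critical value of 0.829 for 4 values. The level rests on 187 counts, with an exact Poisson interval of 6.57 to 8.80 CPM for counting error. By chance about 1 in 20 groups passes that critical value, and 22 groups were checked (7 genes and 4 sums in each genotype), of which 1 was picked out.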

How the results depend on the processing

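Each isoform gene was refitted under 14 alternatives, 98 fits in all. In 91 the sign and the side of the threshold were the same, 7 changed sign, and 0 passed the threshold. All sign changes came from leaving out 1 library: Prkce went to 0.0007 without WT replicate 1, 0.0034 without WT replicate 3 and 0.0357 without Cre replicate 3, Prkcq to -0.0059 and -0.0027 without WT replicates 3 and 4, and Prkcz to -0.0031 without WT replicate 3 and -0.0002 without Cre replicate 4. Over these 8 fits per gene the log2 fold change ran from -0.20 to -0.04 for Prkca, -0.08 to -0.05 for Prkcb, -0.031 to 0.036 for Prkce, -0.18 to -0.03 for Prkch, -0.05 to -0.01 for Prkci, -0.0059 to 0.13 for Prkcq and -0.0031 to 0.032 for Prkcz. At an unadjusted p under 0.05 there were 2 of the 7 without Cre replicate 2 and 1 without Cre replicate 4. The number of isoform genes with groups that do not overlap went from 1 to 0 with DESeq2 size factors, and was 1 with library totals alone. The count of genes past the threshold was 5, and 4 to 7 under the alternatives. Deviations from the group means correlated at 0.20, -0.11, 0.02 and 0.02 between WT and Cre libraries of the same replicate number, 1 to 4. Between libraries of different numbers the correlations ran from -0.18 to 0.18. Whether the numbers pair the libraries was not tested. With the number as a replicate block, 6 genes passed, and Prkca had -0.11 (SE 0.09), Prkcb -0.07 (SE 0.04), Prkce -0.01 (SE 0.05), Prkch -0.08 (SE 0.16), Prkci -0.03 (SE 0.04), Prkcq 0.04 (SE 0.09) and Prkcz 0.01 (SE 0.04) on the log2 scale. Counting alone gives a coefficient of variation of 11.3% for Prkch and 6.56% for Prkcq, the highest of the 7.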
